A study of Mus musculus with 2 samples.

Results

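Genes of mitosis and chromosome segregation were followed in rib chondrocytes, which produce cartilage matrix, grown in culture from miR-140 knockout and wild-type mice. The 45 genes were chosen by name, among 18193 genes that the array measures with a probe set of their own. The choice was made with earlier results of these data known, so comparisons with other genes describe a chosen set. They were divided by role into cyclins and kinases (8 genes), kinetochore and checkpoint (18), spindle motors and microtubule proteins (9), and condensin, chromosome structure and cytokinesis (10). The miR-140 knockout array was hybridised with RNA of a culture labelled as depleted of microRNA-140, and the wild-type array with RNA of a control culture. Both cultures came from mice aged 5 days with a strain label naming C57BL/6 and CBA, and both were grown in culture before RNA was taken. How many animals were pooled, and which bases of the locus were deleted, are not given in the sources used here. Each group has 1 array, so there is no spread between cultures, no test, and no p-value, and each difference describes this pair of arrays.

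Cyclin-dependent kinase 1 with its A and B cyclins drives cells into mitosis. Kinetochores then attach chromosomes to the spindle, and the checkpoint holds back anaphase until all are attached. The anaphase-promoting complex next marks securin and cyclins for destruction, condensins keep chromosomes compact while they part, and the actin ring divides the cell. Most of these transcripts are made late in the cell cycle, so in a culture they follow how many cells are cycling. In the growth plate, dividing columnar chondrocytes use this machinery and hypertrophic chondrocytes have left the cycle. In an array of a whole culture, fewer dividing cells and less RNA in each dividing cell cannot be told apart.

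The microRNA missing from the knockout comes from the hairpin below (RefSeq, GRCm38.p6, chr8:107551244-107551313, plus strand), shown because its loss defines the groups. Capitals in the hairpin mark the miR-140-3p strand, and capitals in that strand mark its seed, the bases that pair with targets. The mature strand from the other arm of the hairpin was not among the sequences used here. That strand and its seed, which the loss of the hairpin also removes, are therefore not marked.
Mir140 hairpin: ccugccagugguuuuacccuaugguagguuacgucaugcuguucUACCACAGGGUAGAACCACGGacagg
mmu-miR-140-3p: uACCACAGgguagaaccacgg

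Promoters of mitotic genes are known to carry a CHR element (cell cycle genes homology region), bound by the DREAM and MuvB complexes, and CCAAT boxes, bound by NF-Y. RefSeq promoter windows (GRCm38.p6), from 250 bases before to 50 after the annotated start, were matched by symbol for 37 of the 45 members. Ect2 and Prc1 have a pair of windows each, which makes 39 windows. A CHR match was the run TTTGAA, and its known variant with a central CG (TTCGAA) also counted. The CCAAT box was searched by its name, and each motif on both strands. A CHR match lay in 31 of 39 member windows (79.5%), against 6316 of 32851 windows of all genes (19.2%). Within 50 bases of the start the counts were 28 of 39 (71.8%) against 1743 of 32851 (5.31%). A CCAAT match lay in 30 of 39 (76.9%), against 37.4% of all windows, and both motifs in 28 of 39 (71.8%), against 7.52%. Mitosis genes outside the 45, with 126 windows, lay between. A CHR match lay in 38.9% of these and within 50 bases of the start in 27.8%, a CCAAT match in 53.2% and both in 23.0%. In 21 windows of DNA replication genes a CHR match lay in 19.0% and a CCAAT match in 61.9%. These are matches of letters and not measured sites.

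The stretches below run from 120 bases before the annotated start to 30 after it and are shown because the members' late cell cycle expression is tied to these motifs in earlier work. The first 5 belong to the members that differed most between the arrays among those with both motifs in the stretch, Cdk1 and Ccnb2 encode the mitotic kinase and a cyclin partner, and Cenpa had higher signal in the knockout array. Capitals mark CHR and CCAAT matches on either strand. In Cdca8 a CHR match and a CCAAT match share 1 base.
Ect2, chr3:27153825-27153974, minus strand: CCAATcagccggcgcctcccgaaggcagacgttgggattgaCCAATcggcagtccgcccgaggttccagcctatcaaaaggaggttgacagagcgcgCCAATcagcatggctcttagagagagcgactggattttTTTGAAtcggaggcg
Top2a, chr11:99024160-99024309, minus strand: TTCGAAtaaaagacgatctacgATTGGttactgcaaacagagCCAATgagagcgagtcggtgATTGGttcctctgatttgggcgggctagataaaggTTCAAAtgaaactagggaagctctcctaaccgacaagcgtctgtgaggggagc
Cdca8, chr4:124936888-124937037, minus strand: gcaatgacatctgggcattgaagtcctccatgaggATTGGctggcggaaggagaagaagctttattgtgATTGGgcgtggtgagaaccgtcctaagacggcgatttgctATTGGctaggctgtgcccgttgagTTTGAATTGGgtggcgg
Prc1, chr7:80294331-80294480, plus strand: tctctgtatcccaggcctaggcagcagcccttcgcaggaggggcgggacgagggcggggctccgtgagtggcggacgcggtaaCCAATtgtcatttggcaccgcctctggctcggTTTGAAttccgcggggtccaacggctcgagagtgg
Spc25, chr2:69206184-69206333, minus strand: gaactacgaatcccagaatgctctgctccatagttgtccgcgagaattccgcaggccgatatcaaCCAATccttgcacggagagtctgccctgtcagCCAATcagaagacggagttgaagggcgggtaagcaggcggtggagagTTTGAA
Cdk1, chr10:69352883-69353032, minus strand: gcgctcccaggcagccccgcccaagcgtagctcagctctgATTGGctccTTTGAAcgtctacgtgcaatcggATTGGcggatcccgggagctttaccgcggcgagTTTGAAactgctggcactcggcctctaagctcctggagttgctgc
Ccnb2, chr9:70421525-70421674, minus strand: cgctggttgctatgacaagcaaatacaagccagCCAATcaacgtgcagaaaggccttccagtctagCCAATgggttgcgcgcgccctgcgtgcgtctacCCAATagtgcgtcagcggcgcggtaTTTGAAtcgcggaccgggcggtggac
Cenpa, chr5:30666766-30666915, plus strand: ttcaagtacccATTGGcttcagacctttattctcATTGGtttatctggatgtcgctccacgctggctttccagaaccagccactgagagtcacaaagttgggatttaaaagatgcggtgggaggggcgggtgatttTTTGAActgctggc

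In Ccnb2, CCAAT boxes begin 87, 54 and 21 bases before the start, each beginning 33 bases from the next. The CHR match begins 25 bases after the last of them begins. In Cdk1 a CCAAT box and the CHR nearest the start begin 33 bases apart, and in Prc1 32 bases apart. Top2a holds 6 CCAAT and 4 CHR matches in its whole window, whereas 6 of the 37 members have neither motif in theirs. Cenpa holds both motifs as well, and its CHR begins 102 bases after its nearer CCAAT box begins.

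**Figure D1:**
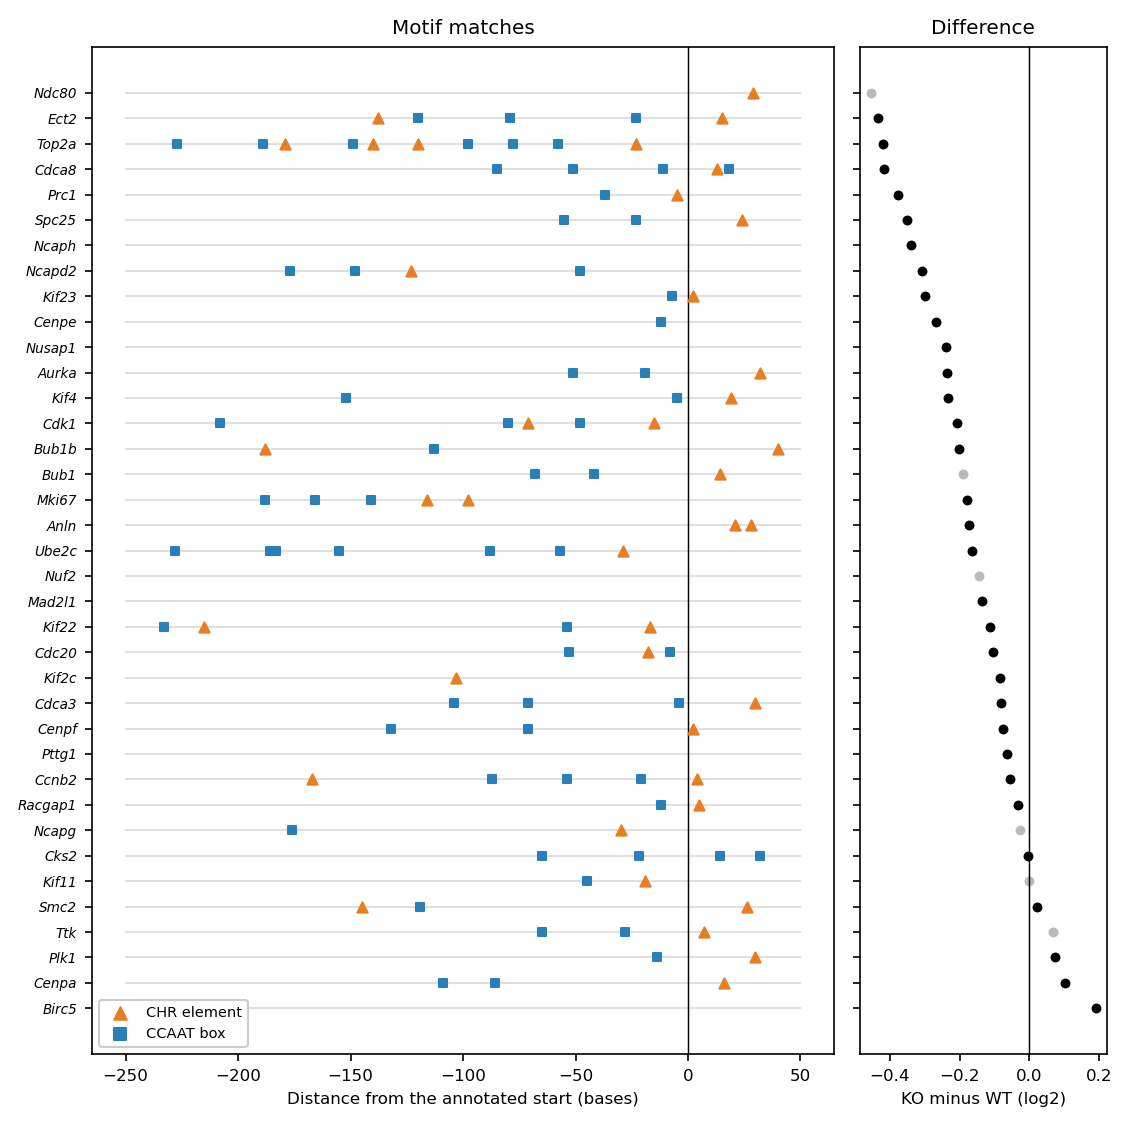
Positions of CHR elements (triangles) and CCAAT boxes (squares) in the promoter windows of 37 members, in bases from the annotated start (1 window per gene), beside the difference in log2 signal, miR-140 KO minus WT (grey for genes under the signal floor). Genes run from the lowest difference at the top to the highest at the bottom, and CHR matches gather near the start along the whole order.

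Values are log2 signals made by Robust Multichip Average (RMA), which brings the arrays to a common scale and gives each probe set 1 value. For each gene the brightest probe set was used, and a gene was compared where its log2 signal reached 7 in at least 1 array. Of the 45 members, 38 were compared and 7 were under this floor in both arrays. Of the 38, 34 reached the floor in both arrays. Aurka, Cenpe, Kif20a and Nusap1 reached it in the wild-type array alone, so for these 4 the filter fixed the direction. The members nearest the floor were Cenpe (6.77 in KO, 7.04 in WT), just inside, and Bub1 (6.51 in KO, 6.70 in WT), just outside.

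Most of the members compared had slightly lower signal in the knockout array. Of the 38 members compared, 34 were lower and 4 higher in KO, where 59.2% of all 9897 genes compared were lower and 40.0% higher. Their median difference was -0.18 on the log2 scale, beside -0.05 over all genes compared. A difference of at least 0.3 on the log2 scale (1.23-fold) was seen as lower signal for 9 members, or 23.7%, where 12.6% of all genes compared had one. No member was higher by 0.3, which 6.49% of all genes were, and no member reached a 2-fold difference in either direction, where 1.22% of all genes were 2-fold lower and 0.475% 2-fold higher. The differences of members ran from -0.43 to 0.19, and 20 of the 38 were smaller than 0.2 in size. Among the 34 members above the floor in both arrays, 30 (88.2%) were lower and 9 (26.5%) lower by at least 0.3, where 59.1% and 11.5% of the 9404 genes above it in both arrays were.

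The count of 9 depends on the probe sets. With probe sets of 1 transcript only, 3 of 23 members (13.0%) were lower by at least 0.3, beside 12.5% of all genes, and with each gene's probe sets averaged 3 of 22 (13.6%), beside 9.31%. After a further centring of the arrays on the median of all genes, 31 of 38 members (81.6%) were lower, where 4948 of all 9897 genes were by construction, and 6 members (15.8%) by at least 0.3, where 9.74% of all genes were.

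**Figure D2:**
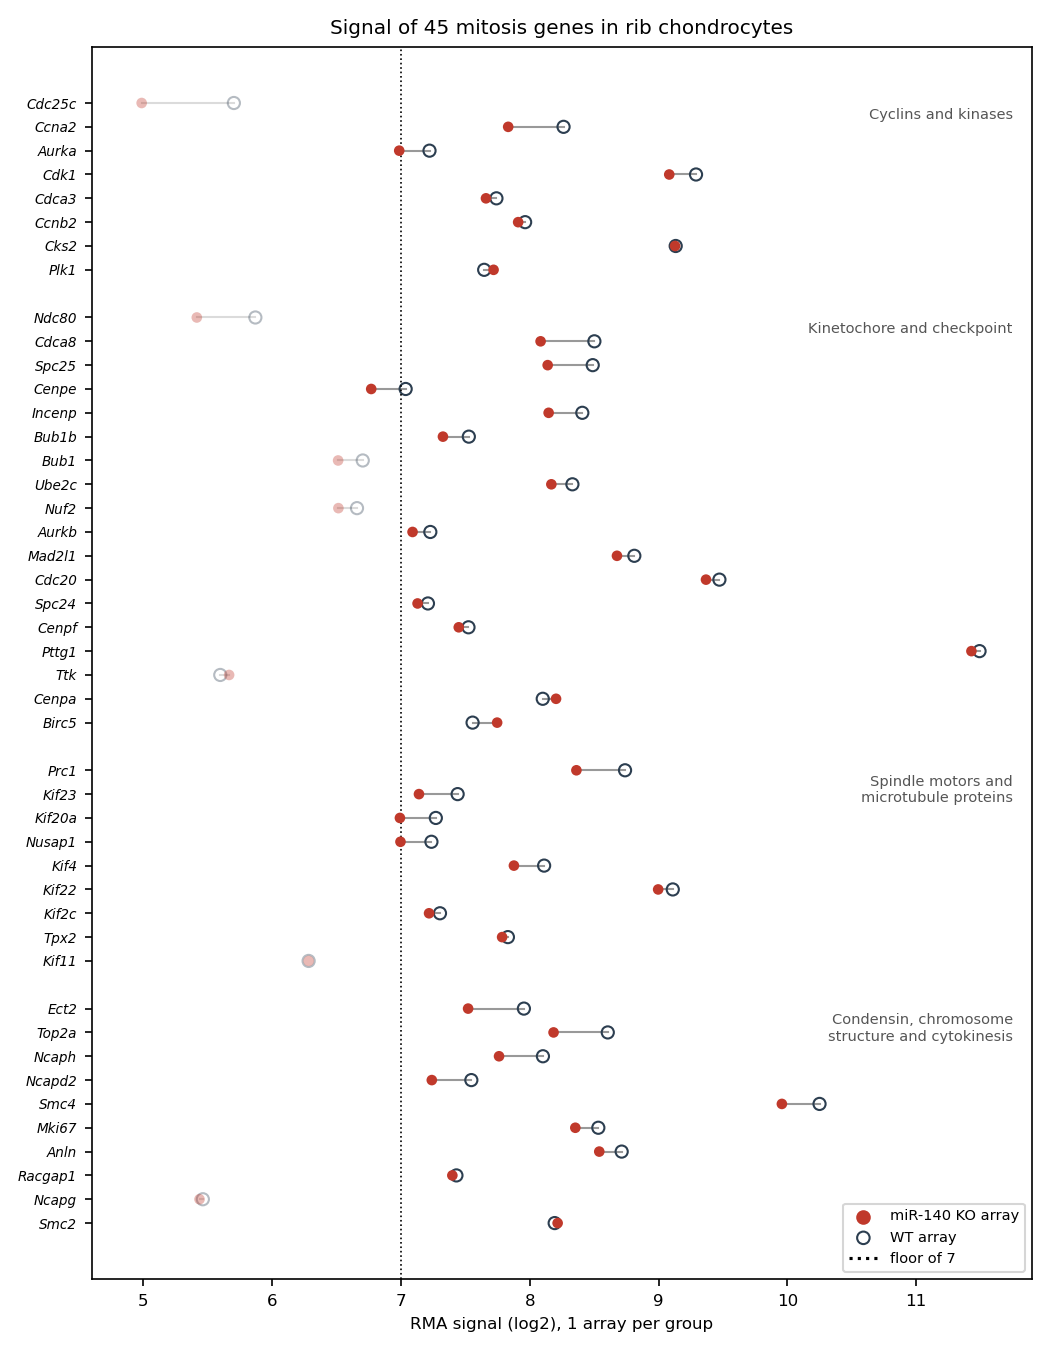
RMA signal (log2) of the 45 members in the miR-140 KO array (filled) and the WT array (open), by role, with the floor of 7 dotted and members under it in both arrays faded. KO points lie left of WT points for 34 of the 38 members above the floor, and the lowest difference is -0.43.

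Among cyclins, kinases and their partners, 6 of 7 members above the floor were lower in KO, with a median of -0.08, close to that of all genes. Ccna2, the cyclin that acts in S phase and on entry to mitosis, read 7.83 in KO and 8.26 in WT, a difference of -0.43 (1.35-fold lower). A further Ccna2 probe set differed by only -0.02, so the size of this difference rests on 1 probe set. Cdk1, the mitotic kinase, read 9.08 in KO and 9.29 in WT (-0.21). Aurka, the kinase of centrosomes and spindle poles, read 6.99 in KO and 7.22 in WT.

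The remaining members of that group lay close together on both arrays. Cdca3, an adaptor of a ubiquitin ligase that promotes mitotic entry, read 7.66 in KO and 7.74 in WT. Ccnb2, a mitotic B cyclin, read 7.91 in KO and 7.96 in WT (-0.05), and its sign turned to 0.01 after lowess centring. Cks2, a small subunit that binds cyclin-dependent kinases, read 9.13 on both arrays, while its other probe set differed by -0.24. Plk1, a kinase used from entry to cytokinesis, was the 1 member of the group with higher signal, 7.72 in KO and 7.65 in WT. Cdc25c, the phosphatase that activates Cdk1, stayed under the floor (4.99 in KO and 5.70 in WT), so its difference is not read.

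In the kinetochore and checkpoint group, 12 of 14 members above the floor were lower in KO, and the median was -0.14. The chromosomal passenger complex corrects faulty attachments, and its 4 subunits differed in direction. Cdca8 (borealin) read 8.08 in KO and 8.50 in WT (-0.42, 1.34-fold lower). A further Cdca8 probe set above the floor differed by -0.11, and the average over all 3 of the gene by 0.02. Incenp, the scaffold, read 8.15 in KO and 8.41 in WT (-0.26). Aurkb, the kinase, read 7.09 in KO and 7.23 in WT (-0.14). Birc5 (survivin) went the other way, with 7.75 in KO and 7.56 in WT (0.19), the highest difference among the 38 members.

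The Ndc80 complex is the coupler of kinetochores to microtubules. Its subunit Spc25 read 8.14 in KO and 8.49 in WT (-0.35, 1.27-fold lower), and Spc24 read 7.13 in KO and 7.21 in WT. Ndc80 itself (5.42 in KO, 5.87 in WT) and Nuf2 (6.51 in KO, 6.66 in WT) were under the floor, so the complex could be followed through 2 of its 4 subunits. Cenpe, a kinetochore motor, read 6.77 in KO and 7.04 in WT, and the difference of -0.27 shrank to -0.04 with low values raised to 7. Cenpf, a large kinetochore protein, differed by -0.08 (7.45 in KO, 7.52 in WT). Cenpa, the histone that marks centromeres, was higher by 0.10 (8.20 in KO, 8.10 in WT).

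The 5 checkpoint and anaphase genes above the floor were all lower in KO, none by 0.3. Bub1b (BubR1) read 7.33 in KO and 7.53 in WT (-0.20), and Mad2l1, which binds Cdc20 until attachment is complete, read 8.68 in KO and 8.81 in WT. The checkpoint kinases Bub1 and Ttk (5.67 in KO, 5.60 in WT) were under the floor. Cdc20, the activator of the anaphase-promoting complex, read 9.37 in KO and 9.47 in WT, and all 3 of its probe sets were lower, by -0.15 to -0.07. Ube2c, the ubiquitin-conjugating enzyme of that complex, read 8.17 in KO and 8.33 in WT. Pttg1 (securin) was the brightest member, with 11.43 in KO and 11.49 in WT, and a further securin probe set differed in sign, at 0.22.

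All 8 spindle motors and microtubule proteins above the floor were lower in KO, with a median of -0.24, although 2 of them, Kif20a and Nusap1, passed the floor in WT alone. The median was -0.17 over the other 6. Prc1, which bundles microtubules of the central spindle, read 8.36 in KO and 8.74 in WT (-0.38, 1.30-fold lower), and a further Prc1 probe set differed by -0.27. Kif23, a motor of the central spindle, read 7.14 in KO and 7.44 in WT, a difference of -0.30 at the threshold itself. Kif20a, a motor that carries passenger proteins to the central spindle, read 6.99 in KO and 7.27 in WT. Nusap1, a microtubule-binding protein of the spindle, read 6.996 in KO and 7.24 in WT.

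Of the motors that act on chromosomes, the X-linked chromokinesin Kif4 read 7.88 in KO and 8.11 in WT (-0.23), and Kif22, a further chromokinesin, 8.997 in KO and 9.11 in WT. Tpx2, the activator of Aurora A, differed by -0.04 with its brightest probe set (7.79 in KO, 7.83 in WT), and its other 2 above the floor by -0.05 and -0.47. Kif2c, which depolymerises microtubules at centromeres, read 7.22 in KO and 7.30 in WT, while a probe set of nearly the same signal differed by 0.23, which leaves its direction unsettled. Kif11, the motor that separates spindle poles, was listed at the same value, 6.28, on both arrays and lay under the floor.

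Condensin, chromosome structure and cytokinesis genes had a median of -0.29, with 8 of 9 members above the floor lower in KO and 4 of them by at least 0.3. With probe sets of 1 transcript the median was -0.18, beside -0.24 for spindle motors and -0.22 for cyclins and kinases, so the order of the groups turns with the probe sets, and differences between them were not tested. Top2a, the topoisomerase that untangles sister chromatids, read 8.19 in KO and 8.61 in WT (-0.42, 1.34-fold lower). The condensin I subunits Ncaph (7.76 in KO, 8.10 in WT) and Ncapd2 (7.24 in KO, 7.55 in WT) differed by -0.34 and -0.31. Smc4, a core ATPase of both condensins, read 9.96 in KO and 10.25 in WT (-0.29), with a further probe set at -0.16. Its partner Smc2 did not share that difference, with 8.22 in KO and 8.19 in WT, and Ncapg was under the floor (5.44 in KO, 5.46 in WT).

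The genes of cell division were led by Ect2, the exchange factor that activates RhoA at the cleavage site, with 7.52 in KO and 7.95 in WT. This difference of -0.43 (1.35-fold lower) was the lowest among the 38 members and comes from the 1 probe set of the gene. Racgap1, the centralspindlin subunit that binds Ect2, read 7.40 in KO and 7.43 in WT, and Anln (anillin), a scaffold of the contractile ring, 8.54 in KO and 8.71 in WT. Mki67, the coat protein of mitotic chromosomes used as a marker of cycling cells, read 8.35 in KO and 8.53 in WT (-0.18, 1.13-fold lower).

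Probe sets of 1 gene share their RNA and array and are not replicates, but they read different parts of a transcript. Of 51 member probe sets above the floor, 45 were lower and 6 higher in KO, with a median of -0.16. No such count was made over all probe sets, and by gene 59.2% of all genes compared were lower. The 45 include probe sets that reached the floor in the wild-type array alone, so the filter fixed their direction. They are the brightest of Aurka, Cenpe, Kif20a and Nusap1 and a further Cdca3 probe set (6.88 in KO, 7.02 in WT). For 11 members with several probe sets above the floor, all were lower in 9, and the signs differed in Kif2c and Pttg1. The brightest probe sets of 10 members are of types that may also bind other transcripts (6 marked x and 4 marked s by the array's design), and all 10 were lower.

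**Figure D3:**
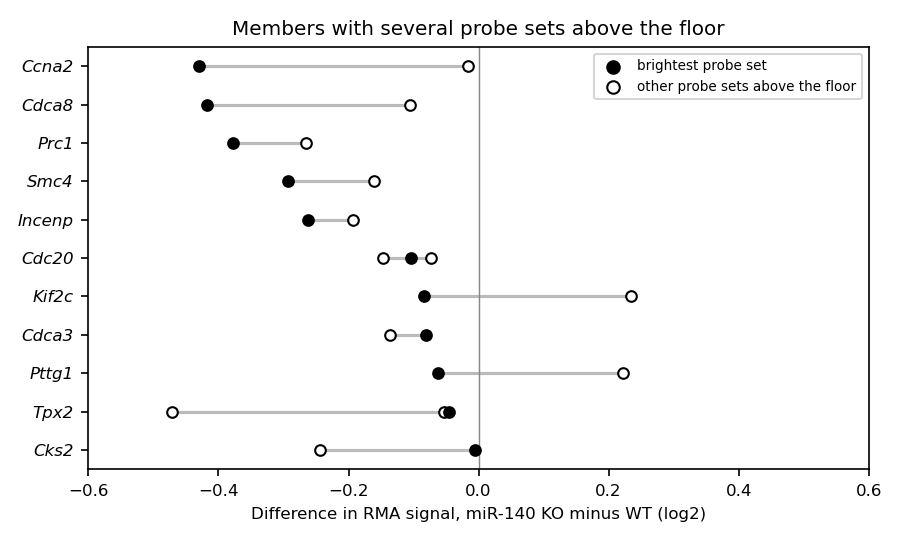
Difference in log2 signal, miR-140 KO minus WT, of every probe set above the floor for the 11 members with several (filled, the brightest; open, the others). All points of 9 genes lie left of 0, and Kif2c and Pttg1 have points on both sides.

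Genes of like brightness were centred nearer 0. Over the range of mean signal that the members span, 9331 genes had a median difference of -0.05, and 58.7% were lower in KO. Members with a mean signal of 7 to 8 had a median of -0.14 (17 of 19 lower), those of 8 to 9 a median of -0.22 (10 of 12 lower), and those of 9 and over a median of -0.11 (6 of 6 lower). The range of 7 to 8 holds Aurka, Kif20a and Nusap1, which reached the floor in the wild-type array alone, so the filter fixed their direction. The medians of all genes in these ranges were each -0.05.

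**Figure D4:**
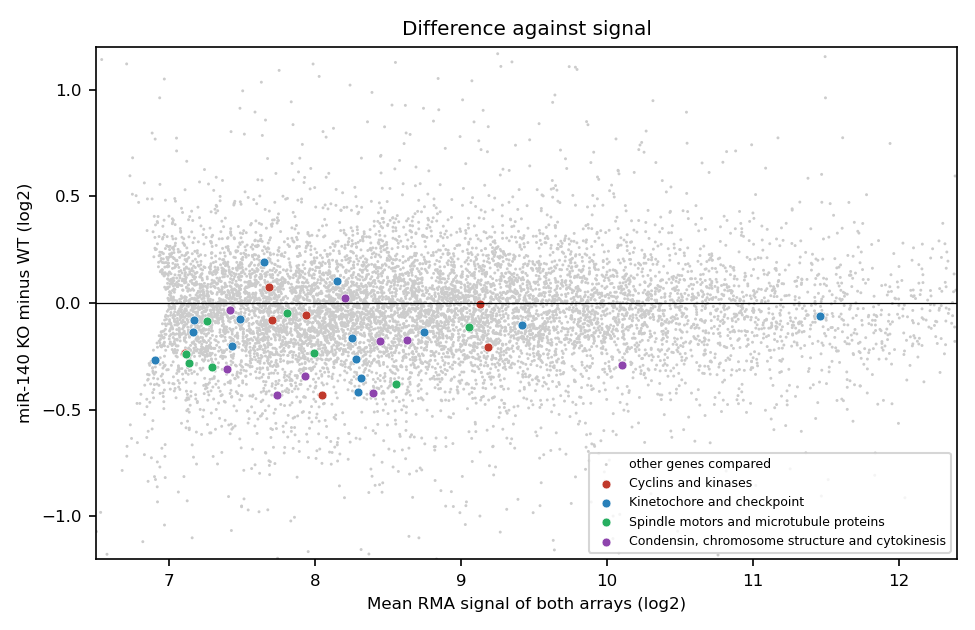
Difference in log2 signal, miR-140 KO minus WT, against the mean of both arrays for the 38 members above the floor (coloured by role) and other genes compared (grey, those beyond the axes not drawn). Members lie between -0.43 and 0.19, most below 0 and inside the cloud of other genes.

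Mitotic genes outside the 45 that passed the floor, 81 of 118 with a probe set, lay closer to all genes. The 118 came from 6 lists, and those under the floor were not compared. Of the 81, 51 (63.0%) were lower in KO, 11 (13.6%) by at least 0.3, and 1 was higher by at least 0.3. Among all genes compared, 59.2%, 12.6% and 6.49% were. The median of the 81 was -0.07, near that of all genes. Above the floor in both arrays were 74 of them, with 44 (59.5%) lower, 6 (8.11%) by at least 0.3 and a median of -0.04. A CHR match near the start was less common in windows of the 6 lists (27.8%) than of the members (71.8%). Whether this bears on the contrast was not tested. Genes of mitotic entry and exit were lower for 7 of 9, with a median of -0.16. There Nek2, a centrosome kinase, differed by -0.38, Cdc14b, a phosphatase, by -0.31, Mastl (Greatwall) by -0.30 and Pbk, a mitotic kinase, by -0.28.

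Further kinetochore genes were lower for 11 of 17 (median -0.12). The centromere proteins Cenpk (-0.42), Cenpq (-0.36) and Cenpw (-0.35) passed the floor in the wild-type array alone, as did Nek2, Ncapg2, Cdca2 and Cdca5. Nsl1, of the Mis12 complex, was higher by 0.33. Subunits of the anaphase-promoting complex and its enzyme Ube2s were lower for 5 of 13, with a median of 0.01. Cdc27 differed by -0.26, Cdc26 by 0.15, and Anapc10 and Cdc23 by 0.14 each. Cohesin and condensin II genes had a median of -0.07 (9 of 13 lower). Rad21, the cohesin subunit that separase cuts, read 10.41 in KO and 10.94 in WT (-0.53), a larger difference than that of any of the 38 members, and Ncapg2 stood at -0.40, Esco1 at -0.21 and Pds5a at 0.18.

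Other spindle genes were lower for 11 of 18 (median -0.03), with Cep55 at -0.35, Cdca2 at -0.30, Kif3b at 0.26 and Gtse1 at 0.23. Other cytokinesis genes were lower for 8 of 11 (median -0.08), with Septin9 at -0.41, Kif13a at -0.31, Arhgef2 at -0.28 and Shcbp1 at -0.23.

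**Figure D5:**
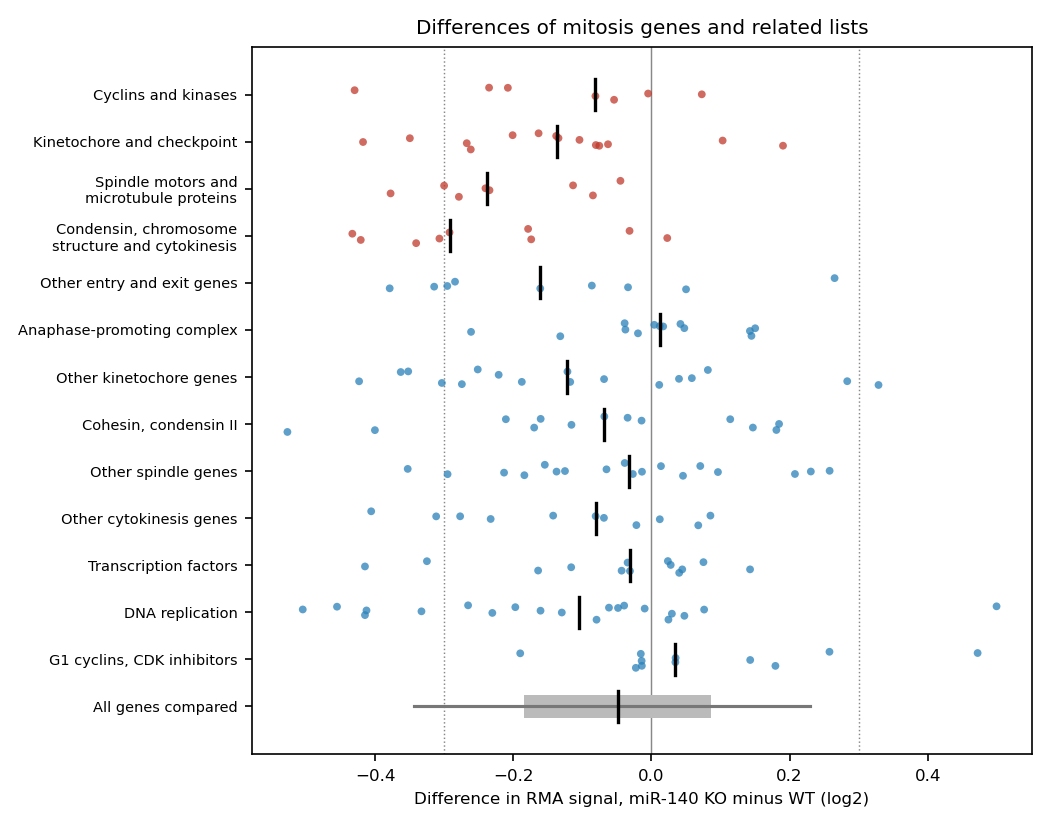
Difference in log2 signal, miR-140 KO minus WT, of genes above the floor in the 4 role groups of members (red) and in 9 further lists (blue), with the median of each as a black bar and 0.3 dotted. The bottom row gives all genes compared (grey box, quartiles; line, percentiles 10 to 90), whose median of -0.05 lies right of the medians of the 4 member groups.

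Regulators of these genes were lower about as often as all genes. Of 20 transcription factors and pocket proteins named, 13 were above the floor. Among the 13, 7 (53.8%) were lower in KO, with a median of -0.03, beside 59.2% and -0.05 for all genes compared. Mybl1, Mybl2, Lin9, E2f2, E2f4, E2f7 and E2f8 were under the floor in both arrays. Rbl1 (p107), a pocket protein that passed the floor in the wild-type array alone (6.94 in KO, 7.36 in WT), differed by -0.41, Rb1 (the retinoblastoma protein) by -0.33, Lin52, a MuvB subunit, by -0.16 and E2f1 by 0.14. Foxm1, a factor that acts on mitotic promoters and is named here after its values were seen, read 7.73 in KO and 7.76 in WT. Within the members, the 22 with both CHR and CCAAT matches had a median of -0.19, 7 of them (31.8%) lower by at least 0.3. The 9 others with a promoter window had a median of -0.13, with 1 (11.1%) lower by at least 0.3. Lower signal of any size was as common in each, at 19 of the 22 (86.4%) and 8 of the 9 (88.9%). Differences between these groups were not tested. Outside the members, 480 genes compared with both motifs had a median of -0.05 (60.2% lower, 12.3% by at least 0.3) and 7548 without both also -0.05 (59.4% lower, 12.7% by at least 0.3).

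Earlier steps of the cell cycle were set beside them. Of 26 DNA replication genes named, 20 were above the floor. Of the 20, 15 were lower (median -0.10), and 5 by at least 0.3, a share like that of the members. Over all genes compared, 59.2% were lower and 12.6% by at least 0.3, with a median of -0.05. The largest differences of the list were Mcm6 at -0.50, Mcm2 at -0.46, Mcm5 at -0.41 and Rfc3 at 0.50. Of 12 cyclins and inhibitors of G1 named, 11 were above the floor. They were lower for 5 of the 11 (median 0.03), with Ccnd1 (cyclin D1) at 0.47, Cdkn2b at 0.26, Cdk4 at 0.18 and Cdkn1a (p21) at -0.19.

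The same arrays differed far more in other respects, whose part in the mitotic values was not tested. All 16 chondrocyte markers above the floor, of 17 named, were lower in KO, with a median of -2.05, and the summed signal of all 17 was 14.3 in KO and 16.3 in WT on the log2 scale. The brightest were Col2a1 (11.98 in KO, 13.98 in WT), Col9a1 (11.82 in KO, 13.39 in WT) and Col11a1 (11.95 in KO, 13.17 in WT). Of the 17, 15 reached the floor in KO and 16 in WT. Acan (aggrecan), named after its values were seen, read 7.99 in KO and 12.02 in WT, and Col9a2, the marker above the floor in WT alone, 6.06 in KO and 9.86 in WT. Matn1 was under the floor in both (4.99 in KO, 6.12 in WT). Of 14 markers of fibroblasts and perichondrium above the floor, 10 were higher in KO and 4 lower (median 0.20), and the summed signal of all 17 listed was 15.6 in KO and 15.3 in WT. The brightest, Col1a2, S100a4 and Col1a1, were higher by 0.13, 0.37 and 0.28. The largest differences, named after their values were seen, were Col3a1 at 1.38, Postn at -1.26, Lum at 0.96 and Fbln2 at 0.72. Endothelial, skeletal muscle and erythroid lists had 1 gene each above the floor (Kdr, Des and Epor), the macrophage and leukocyte list 4 of 7, the brightest being Cd14, Csf1r and Cd68, and the osteoblast list Omd alone. Wwp2, the host gene of Mir140, read 7.13 in KO and 9.65 in WT, and the array has no value for miR-140 itself. Xist read 10.60 in KO and 7.01 in WT, and Y-linked Eif2s3y 4.18 in KO and 8.86 in WT, so sex or the mix of sexes and genotype cannot be told apart.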

How the data were processed

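Affymetrix Mouse Genome 430 2.0 arrays measured messenger RNA in 1 miR-140 knockout and 1 wild-type culture, grouped by sample title. The deposited values are log2 signals that the authors made by RMA, per the labels' design text, in Affymetrix Expression Console 1.1, per the submitters' processing notes. Sorted by size, the values of the arrays lie within 0.157 of each other, so a shift common to most genes could not be seen. No source used here says which arrays shared a normalization.

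Of 45101 probe sets, 34945 have a single platform symbol. The brightest probe set per gene was kept, with a floor of 7, and knockout minus wild type was taken (Python 3.11.15, pandas 2.3.3, statsmodels 0.14.6). Members and lists were chosen with earlier results of these data known. All members were named, with the 4 largest differences of each related list and the 3 brightest of each marker list. Some listed symbols were former names of others, and 118 of 130 listed other mitosis symbols had a probe set. A single array per group allows no test, and their number limits the precision. Counting was checked on simulated data. Alternatives were other floors, centrings, normalizations, probe set rules and thresholds.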

Additional observations from a re-analysis of the deposited data

How the results depend on the processing

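The median of the members compared, 20 to 45 of them by setting, stayed between -0.19 and -0.13 in 12 other settings, and the share of members lower in KO between 78.9% and 91.3%. No member was higher by 0.3 in 13 settings. Floors in both arrays and on the mean signal were added after the data were seen. Fewer genes pass a floor of 8 (members lower in KO, 18 of 20; other mitosis genes, 32 of 55), probe sets of 1 transcript (members, 21 of 23) or the mean of all probe sets (members, 19 of 22; other mitosis genes, 29 of 57). Members lower by at least 0.3 numbered 3 of 23 (13.0%) with probe sets of 1 transcript, beside 12.5% of all genes. With the mean over probe sets they numbered 3 of 22 (13.6%), beside 726 of all 7795 genes (9.31%). A threshold of 0.2 gave 18 of 38 members (47.4%) and 2252 of all 9897 genes (22.8%). Medians that moved by 0.05 or more were as follows, and the cause was not tested. For cyclins and kinases (-0.08) they were -0.026 with lowess centring, -0.21 with a floor of 8, -0.14 with no floor and -0.22 with probe sets of 1 transcript. For spindle motors (-0.24) they were -0.18 with lowess centring and -0.17 with the floor in both arrays. For condensin and cytokinesis (-0.29) they were -0.24 with a floor of 8 and with no floor, -0.20 with the mean of all probe sets and -0.18 with probe sets of 1 transcript. For other mitosis genes (-0.07) they were -0.0071 with lowess centring and -0.012 with the mean over probe sets. For replication genes (-0.10) they were -0.0497 with lowess centring, -0.18 with floors of 6 and 8 and -0.16 with no floor. The threshold has no bearing on medians. No paired analysis was possible because each group has 1 array. Signal near the floor limits the dimmest members, 7 of which could not be compared.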
